A study of Rattus norvegicus with 72 samples.

Results

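The genes described here handle or respond to glucocorticoids, the adrenal steroid hormones, in rat liver. There were 8 of them among 14506 genes measured. They were chosen by function, with earlier results of these data known. Each was read from the probe set with its highest mean in the batch-corrected table, and each had 1 such probe set. Serpina6 encodes corticosteroid-binding globulin, the plasma carrier of the hormone. Nr3c1 encodes the glucocorticoid receptor, and Hsd11b1 the enzyme that regenerates active corticosterone inside the hepatocyte. Fkbp5, a cochaperone that lowers the receptor's affinity for hormone, and Tsc22d3, a leucine zipper protein that mediates anti-inflammatory effects, are widely used as reporters of receptor activity. Tat (tyrosine aminotransferase), Sgk1 (a serum- and glucocorticoid-regulated kinase) and Dusp1 (a phosphatase that inactivates MAP kinases) are further targets. Sgk1 and Dusp1 also respond to growth factors and cell stress.

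Corticosterone, the main glucocorticoid of the rat, is released in a daily rhythm and after stress such as surgery. In hepatocytes it binds the receptor, which is held ready by chaperones, and the complex enters the nucleus and raises transcription of genes for gluconeogenesis, amino acid breakdown and the damping of inflammation. Fkbp5 is part of a negative feedback on the receptor.

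Liver RNA was measured on 72 Affymetrix Rat Gene 1.0 ST arrays from 36 rats on 3 diets, an ethanol diet (EtOH), a high fat diet (HF) and a carbohydrate diet (CHO), with 4 rats for each diet and time. Each rat gave a control array, from the liver tissue that surgeons took out in a partial hepatectomy (PHx), and an array from its remnant 1, 6 or 24 h later. The submitters marked 9 arrays as outliers, which were left out. Both arrays were kept for 4, 4 and 3 EtOH rats, 3, 2 and 3 HF rats and 3, 3 and 2 CHO rats at 1, 6 and 24 h, and 31 control arrays (12 EtOH, 9 HF and 10 CHO) were kept in all. Leaving out 1 more HF animal at 6 h or CHO animal at 24 h leaves 1 of that diet, which the fit assumes to vary like the other groups. The labels used here give neither the diets' composition and length nor the hour of surgery. No sham-operated animals were among the samples, so a response holds surgery, anaesthesia and time of day as well as loss of liver mass, which cannot be told apart.

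The source names and the titles of the samples give the HF and CHO names the other way round. The titles were used, and if the source names are right, each EtOH minus CHO value is an EtOH minus HF value and the reverse, and each HF minus CHO value changes sign. The remnant array of EtOH replicate 4 at 24 h, 1 of the 9 marked as outliers, carries a diet tag that names the high fat diet, and it counts as EtOH, by its title, where all 72 arrays are used. In the authors' table without outliers, 2 of 63 columns, the CHO control columns of the 1 h cohort replicate 3 and the 6 h cohort replicate 1, carry the profile of their own animals' remnants. These 2 remnants are among the 9 arrays marked as outliers, so that table keeps them and lacks the control profiles. Whether the remnants or the controls were meant to be left out cannot be told from it. If the controls were meant, the 2 remnants are missing from the remnant comparisons. Neither animal enters the responses in either case. In the batch-corrected table used here both control arrays stand with the other controls, and the control comparisons of Nr3c1 and Fkbp5 are given with and without them. Without them Sgk1 differed by -0.74 between EtOH and HF controls (limma adjusted p = 0.0786). Dusp1 differed by -0.54 between EtOH and CHO controls (limma adjusted p = 0.0757), and neither was called. Comparisons of marker and list genes in control livers are given only with them. Hepatocyte markers had a mean level of 12.57 to 12.78 on the control arrays and 12.31 to 12.68 on the remnant arrays (log2 scale, array medians 4.54 to 4.77). All 7 neutrophil and all 3 lymphocyte markers measured stayed under the array medians. Some markers of other cell types were called at the later times, when many genes were. Of all genes 20% rose and 19.9% fell at 6 h, and 16.6% rose and 17.4% fell at 24 h. Of 7 stellate cell and matrix markers 4 fell at 6 h, when their mean level had a median of 5.99 against 6.32 in control livers, and 3 fell and 1 rose at 24 h (6.05). Of 6 endothelial markers 4 rose and 0 fell at 6 h (7.80 against 7.65), and 0 rose and 2 fell at 24 h (7.34). Both red cell markers fell at 24 h (7.10 against 8.07). Their part in the later changes of the 8 genes was not tested. In whole liver, fewer cells of a type and less RNA per cell cannot be told apart.

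After PHx the target genes rose first and the carrier, the receptor and most targets fell later. In the mean of the diets, 5 of the 8 genes rose at 1 h and 0 fell (median log2 change 0.76, against -0.014 over all genes). At 6 h 3 rose and 4 fell, and at 24 h 0 rose and 5 fell, with a median change of -0.90. A gene is called, and said to have risen or fallen, at a limma adjusted p under 0.05 over all genes. Of all genes, 4.47% rose and 5.83% fell at 1 h, 20% and 19.9% at 6 h, and 16.6% and 17.4% at 24 h.

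**Figure D1:**
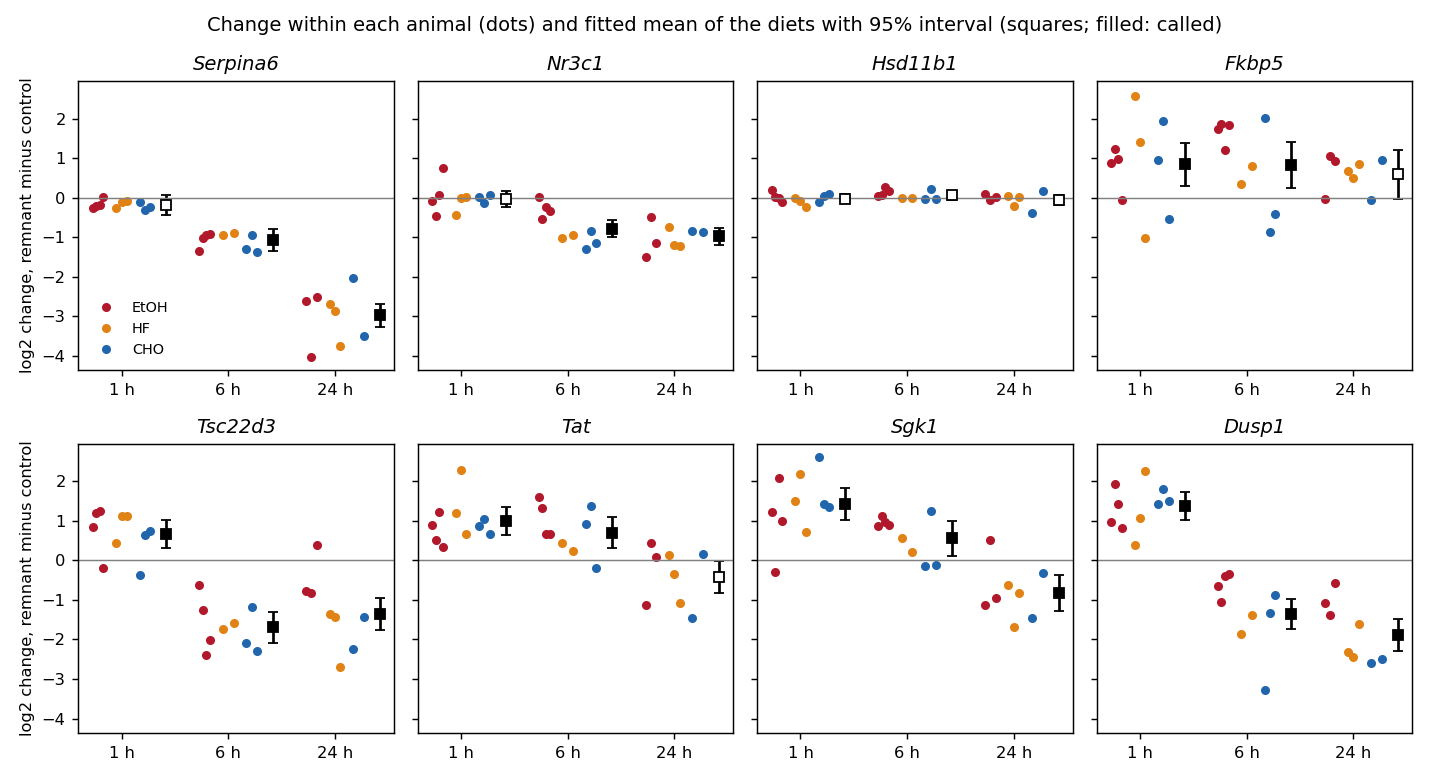
Log2 change from control to remnant in each animal (dots, coloured by diet) at 1, 6 and 24 h, with the fitted mean of the diets and its 95% interval (squares, filled where the gene was called). Serpina6 descends from near 0 at 1 h to a fitted -2.98 at 24 h, Dusp1 turns from 1.37 at 1 h to -1.36 at 6 h, and Hsd11b1 stays near 0.

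Serpina6, the gene of the hormone's carrier, showed the largest fall of the 8. Its level in 31 control livers was 10.94 ± 0.19 (SD), with the lowest at 10.56 and the highest at 11.27. In the remnants it lay between 10.56 and 10.95 at 1 h (n = 11), between 9.41 and 10.16 at 6 h (n = 10) and between 6.72 and 8.71 at 24 h (n = 11). The control and remnant levels overlapped at 1 h and did not overlap at 6 or 24 h, and how many of all genes lack such overlap was not counted. The within-animal change was -1.06 ± 0.14 (SE) at 6 h, a 2.09-fold fall (limma adjusted p = 2.17e-07), and -2.98 ± 0.14 at 24 h, a 7.86-fold fall (limma adjusted p = 2.8e-15). All 9 animals fell at 6 h and all 8 at 24 h. At 24 h the EtOH animals changed by -2.61, -4.03 and -2.50, the HF animals by -2.87, -3.76 and -2.70, and the CHO animals by -2.04 and -3.50. The diets overlapped throughout. Among the 24 h remnants, EtOH minus CHO was -0.51 ± 0.32 and not called (limma adjusted p = 0.396), and with array weights it was -0.96 and called (limma adjusted p = 0.0486). At 1 h the change was -0.18 ± 0.12, with 9 of 10 animals lower, and did not pass the test (limma adjusted p = 0.455).

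Hepatocyte markers moved in the same direction by far less. Of 8 measured, 7 fell at 6 h and 6 at 24 h, with median changes of -0.21 and -0.24, against 19.9% and 17.4% of all genes that fell. Among them, Ttr, the plasma thyroxine carrier transthyretin, fell by 0.42 at 24 h. Whether this takes part in the fall of Serpina6 was not tested. Over 18 group means (diet, cohort and state), the patterns most like that of Serpina6 were those of Mug2 (r = 0.99), Itih1 (r = 0.99) and Ptgr1 (r = 0.98). Mug2 and Itih1 encode secreted proteinase inhibitors or parts of them. These correlations are a description, since all genes share the arrays and the time course.

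Nr3c1, the receptor gene, kept its level at 1 h and fell at 6 and 24 h. The animals' changes at 1 h ran from -0.47 to 0.74 with a median of 0.012 (n = 10), and the fitted change was -0.03 ± 0.10 (SE, 95% interval -0.22 to 0.17). At 6 h it fell by 0.78 ± 0.10, a 1.72-fold fall (limma adjusted p = 4e-07), and at 24 h by 0.98 ± 0.11, a 1.97-fold fall (limma adjusted p = 3.36e-08). It fell in 8 of 9 animals at 6 h and in 8 of 8 at 24 h, while the levels of the control and remnant arrays overlapped at each time. Its response at 24 h minus that at 1 h was -0.95 ± 0.14 (limma adjusted p = 8.56e-06), and 24 h was not called apart from 6 h (-0.20, limma adjusted p = 0.381).

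At 6 h the receptor gene's changes in the EtOH animals stood apart from those of the other diets, without passing the test. The EtOH animals changed by 0.023, -0.54, -0.23 and -0.34, the HF animals by -1.03 and -0.95, and the CHO animals by -1.29, -0.83 and -1.14. No EtOH value overlapped those of either other diet. Against HF, with 2 animals, the same held at 6 h for Hsd11b1, Fkbp5, Tat, Sgk1 and Dusp1. Against CHO it held for Nr3c1 alone of the 8 genes. How many of all genes lack overlap in such small groups, or between control and remnant levels, was not counted, here or below. The difference in response was 0.82 ± 0.23 for EtOH minus CHO (95% interval 0.35 to 1.29, limma adjusted p = 0.0646) and 0.72 ± 0.26 for EtOH minus HF (95% interval 0.19 to 1.25, limma adjusted p = 0.183). The first was called with array weights, with dim genes left out, with a trended and robust prior, or after renewed quantile normalization (0.80 to 0.87, limma adjusted p from 0.0234 to 0.0495). It was also called without any 1 of 4 EtOH animals of other times, replicate 2 or 4 of 1 h or replicate 1 or 2 of 24 h (limma adjusted p from 0.0293 to 0.0454).

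The EtOH rats entered surgery with a lower level of the receptor gene. Control levels were 8.27, 8.57 and 8.99 (lowest, median and highest) in 12 EtOH livers, 8.72, 9.18 and 9.43 in 9 HF livers, and 8.79, 9.09 and 9.42 in 10 CHO livers. In the 1 and 6 h cohorts no EtOH control liver overlapped the HF or CHO control livers. Nr3c1 was lower in EtOH, with EtOH minus CHO at -0.58 ± 0.09 (SE, 1.49-fold, limma adjusted p = 8.15e-05) and EtOH minus HF at -0.60 ± 0.09 (1.51-fold, limma adjusted p = 1.98e-05). These comparisons share the EtOH arrays. HF minus CHO was 0.022 (95% interval -0.18 to 0.22). Without the CHO control arrays in doubt, the differences were -0.62 and -0.61. Within single cohorts the EtOH minus CHO values were -0.50, -0.62 and -0.63 at 1, 6 and 24 h, of which only that of the 6 h cohort was called (limma adjusted p = 0.117, 0.049 and 0.239), and the EtOH minus HF values were -0.62, -0.72 and -0.45, called in the 1 and 6 h cohorts (limma adjusted p = 0.04, 0.0214 and 0.365). In the 6 h remnants, EtOH minus CHO was -0.0070 (95% interval -0.41 to 0.40). The genes most like Nr3c1 over the 18 group means were Sult1c3 (r = 0.96), Enpp2 (r = 0.96) and Aox3 (r = 0.95).

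**Figure D2:**
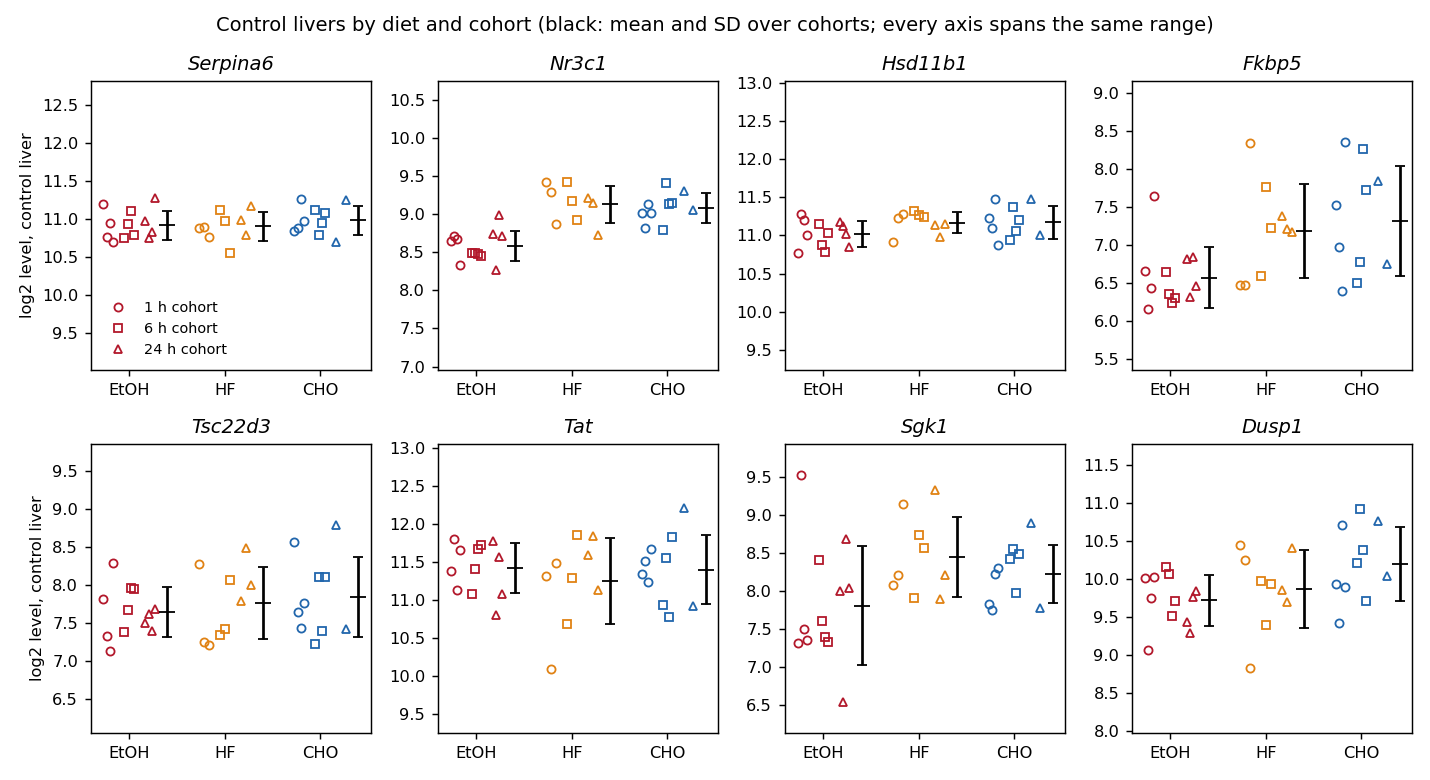
Log2 level of each gene in the control livers by diet, with a marker for each cohort and the mean and SD over cohorts in black. For Nr3c1 the 12 EtOH livers lie between 8.27 and 8.99, against 8.72 to 9.43 in HF and 8.79 to 9.42 in CHO.

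In the control livers 1 of the 8 genes was called in each comparison of EtOH with another diet, against 11.5% of all genes for EtOH minus CHO (4.82% lower) and 13.1% for EtOH minus HF (5.76% lower). The gene was Nr3c1. For HF minus CHO 0 of 8 were called, and 0 had an unadjusted p under 0.05 in limma, against 0.159% of all genes called. Other values moved with the EtOH control livers. Of 10 macrophage markers, 4 were higher than in CHO and 8 higher than in HF, and their mean level ran from 7.53 to 8.41 in EtOH, 7.13 to 7.92 in HF and 7.30 to 7.93 in CHO. The core clock gene Bmal1 had a level of 6.75 ± 0.56 (SD, n = 12) in EtOH, 3.72 ± 0.26 (n = 9) in HF and 3.90 ± 0.53 (n = 10) in CHO control livers. Dbp, a clock output gene, had levels of 6.69 ± 0.77, 9.97 ± 0.23 and 10.03 ± 0.28. These 2 genes were chosen after their values were seen. The part of macrophage content and of clock phase in the receptor gene's difference was not tested.

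Fkbp5, the feedback cochaperone, had median control levels of 6.45 in EtOH (6.16 to 7.64, n = 12), 7.22 in HF (6.47 to 8.35, n = 9) and 7.26 in CHO (6.39 to 8.36, n = 10), and the 3 diets overlapped. EtOH minus CHO was -0.56 ± 0.22 (SE, limma adjusted p = 0.109) and EtOH minus HF was -0.56 ± 0.21 (limma adjusted p = 0.0789), neither called. Without the CHO control arrays in doubt, both were called, at -0.75 (limma adjusted p = 0.0056) and -0.56 (limma adjusted p = 0.0187). Leaving out the 1 h cohort's CHO replicate 3 alone gave -0.69 (limma adjusted p = 0.00857) and -0.56 (limma adjusted p = 0.0212), and leaving out the 6 h cohort's CHO replicate 3 also called the second (-0.58, limma adjusted p = 0.0469). A replicate block called EtOH minus HF too (limma adjusted p = 0.0324). The authors' table without outliers also did (limma adjusted p = 0.0202), but it was fitted without the same CHO control arrays in doubt. Array weights and no or a random scan day block did not (limma adjusted p from 0.0774 to 0.106). Within cohorts EtOH minus CHO was -0.01, -0.90 and -0.82 at 1, 6 and 24 h, with no call. Over all cohorts it was called with array weights, no or a random scan day block, or a replicate block. The authors' table without the arrays in doubt also called it (-0.62 to -0.97, limma adjusted p from 0.000996 to 0.0474). All 72 arrays, median centring, dim genes left out, a trended and robust prior or renewed quantile normalization did not (limma adjusted p from 0.0793 to 0.189). The related Fkbp4, a cochaperone that helps the receptor reach the nucleus, was higher in EtOH by 0.87 ± 0.13 against CHO and 0.92 ± 0.12 against HF, both called (limma adjusted p = 1.81e-05 and 3.25e-06).

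Sgk1 and Dusp1 each came near a call in 1 comparison of the control livers. Sgk1 differed by -0.74 ± 0.26 from HF (limma adjusted p = 0.0652). It was called without the EtOH replicate 2 of the 1 h cohort (-0.92, limma adjusted p = 0.00271), whose level of 9.52 stood above the 7.32, 7.50 and 7.35 of the other EtOH controls of that cohort. It was also called without the EtOH replicate 1 of the 6 h cohort (-0.80, limma adjusted p = 0.0498), the HF replicate 2 of the 24 h cohort (-0.82, limma adjusted p = 0.0448) or the HF replicate 2 of the 6 h cohort (-0.86, limma adjusted p = 0.0378). Dusp1 differed by -0.55 ± 0.19 from CHO (limma adjusted p = 0.0684), and was called without the CHO replicate 2 of the 1 h cohort (-0.72, limma adjusted p = 0.0125) or the EtOH replicate 4 of that cohort (-0.66, limma adjusted p = 0.0388). Tat, Tsc22d3, Hsd11b1 and Serpina6 differed by at most 0.19 between any 2 diets in the control livers.

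Hsd11b1, which sets the local supply of active hormone, had no called change after PHx. Its control levels lay between 10.77 and 11.49 (n = 31), and its remnant levels between 10.91 and 11.30 at 1 h, 10.93 and 11.36 at 6 h, and 10.74 and 11.34 at 24 h. The fitted changes were -0.02, 0.06 and -0.05, and the widest of their 95% intervals, at 24 h, ran from -0.18 to 0.08. H6pd, which supplies the cofactor for this enzyme in the endoplasmic reticulum, rose by 0.26 ± 0.07 at 1 h (limma adjusted p = 0.0193). The patterns most like that of Hsd11b1 were those of Zfx (r = 0.83), Fdxacb1 (r = 0.82) and Klhl11 (r = 0.80), and its correlation with the other 7 genes ran from -0.19 to 0.24.

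**Figure D3:**
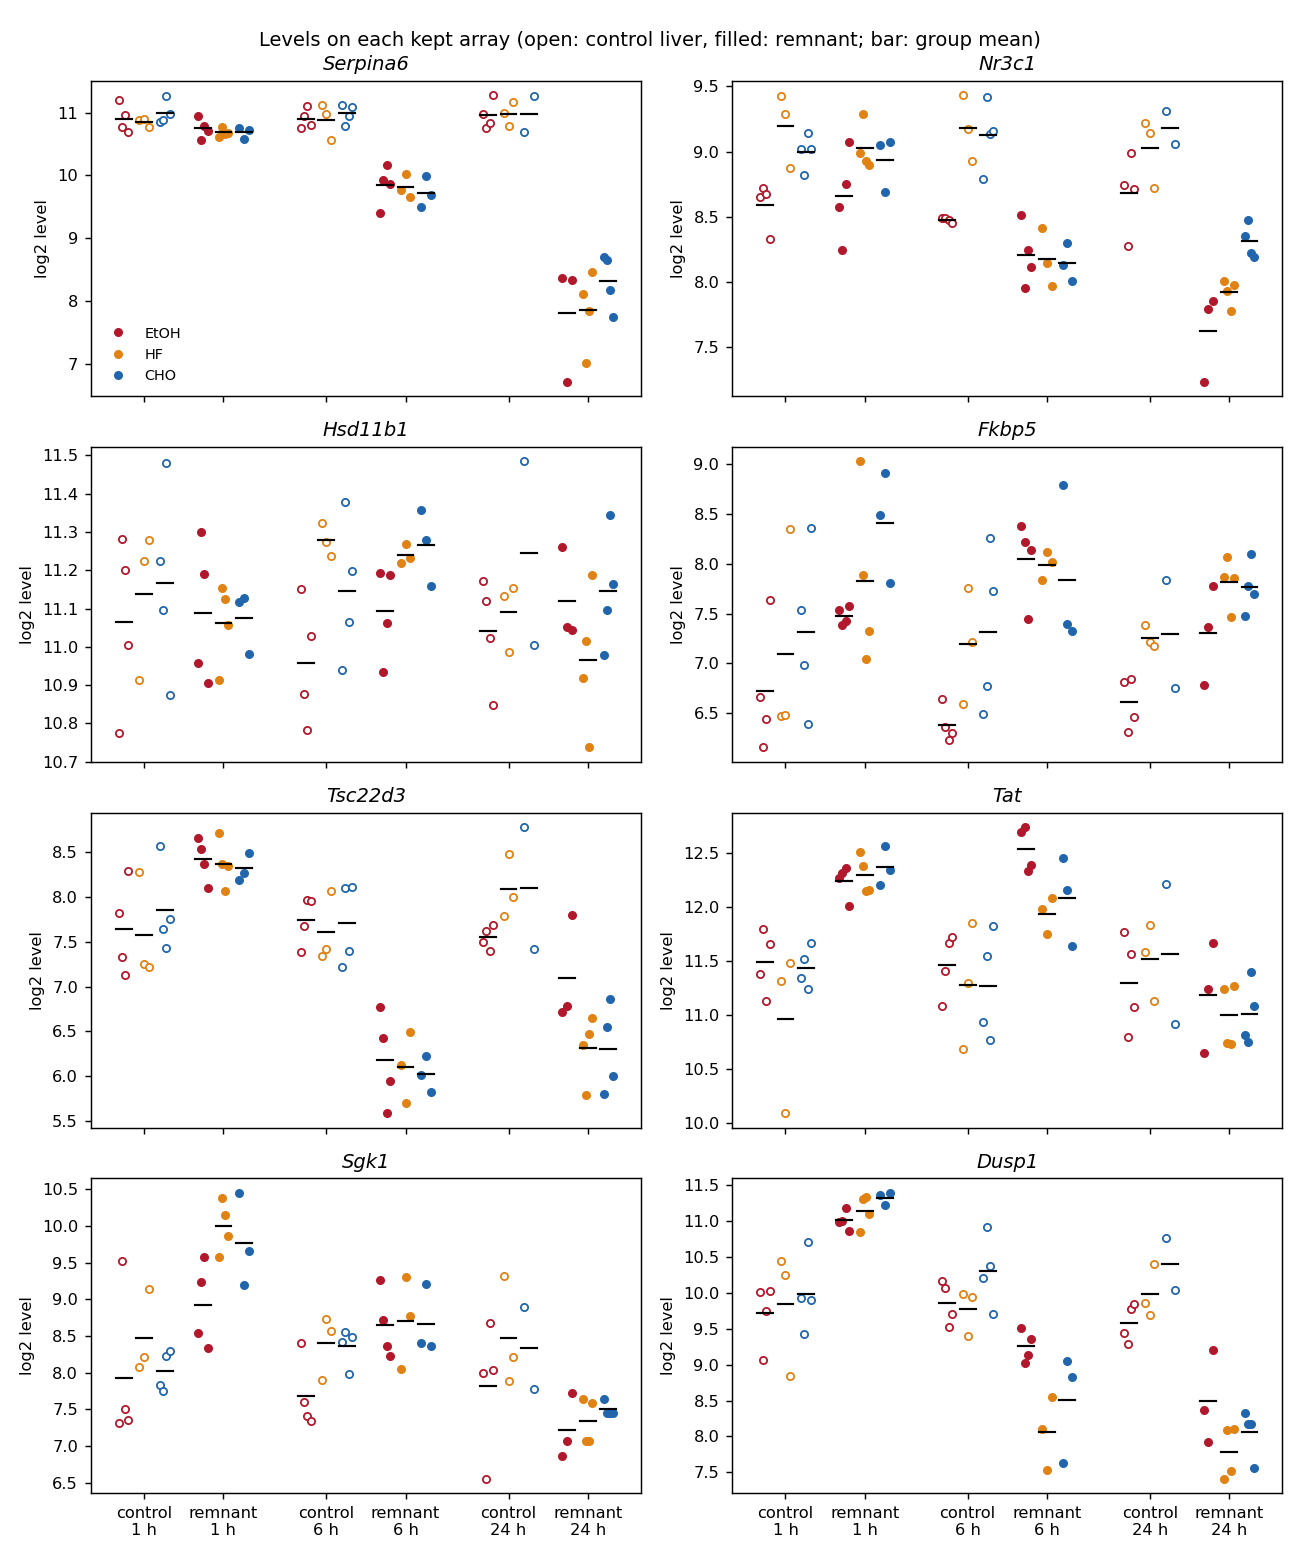
Log2 level of each gene on every kept array, by cohort and state (open, control liver; filled, remnant) and by diet (colour), with a bar at each group mean. Control and remnant levels do not overlap for Serpina6 at 6 and 24 h, Tsc22d3 at 6 h, Tat at 1 h, and Dusp1 at 1 and 24 h. How many of all genes lack such overlap was not counted.

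The 5 target genes shared a rise at 1 h and parted by 6 h. Tat rose in 10 of 10 animals at 1 h, by 0.35 to 2.29 (median 0.87), with control levels of 10.09 to 11.80 and remnant levels of 12.01 to 12.57 (n = 11 each), which did not overlap. The fitted change was 1.00 ± 0.18 (SE), a 2-fold rise (limma adjusted p = 0.000266). At 6 h Tat was still 0.71 ± 0.19 higher, in 8 of 9 animals (limma adjusted p = 0.00345). At 24 h 4 animals rose and 4 fell, and the change of -0.42 ± 0.20 was not called (limma adjusted p = 0.105). It was called without the CHO replicate 4 (-0.69, limma adjusted p = 0.0177) and within the scan day of 5 animals (-0.84, limma adjusted p = 0.0117). The response at 24 h minus that at 6 h was -1.13 ± 0.28 (limma adjusted p = 0.00228).

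Sgk1 rose by 1.43 ± 0.20 (SE) at 1 h, 2.68-fold (limma adjusted p = 1.03e-05), with changes of -0.28 to 2.62 (median 1.40) and a rise in 9 of 10 animals. The exception was the EtOH animal with the control level of 9.52, and a high control level lowers the change taken from it. At 6 h the changes ran from -0.15 to 1.24 (median 0.86), 7 of 9 animals rose, and the fitted change of 0.56 ± 0.21 was called (limma adjusted p = 0.0376). That call ended without 1 of 5 single animals, the CHO replicate 3 (0.41), the EtOH replicate 2 (0.54), the EtOH replicate 3 (0.56), the HF replicate 3 (0.50) or the HF replicate 4 (0.62), with limma adjusted p from 0.0533 to 0.162. It also ended with the animal as a random block, with no block, with a trended and robust prior or after renewed quantile normalization (limma adjusted p from 0.0568 to 0.107). At 24 h Sgk1 fell by 0.82 ± 0.22, in 7 of 8 animals (limma adjusted p = 0.00445), and without the CHO replicate 2 it was -0.63 and not called (limma adjusted p = 0.0698). Tat and Sgk1 had similar group means (r = 0.77 over 18 group means). The genes most like Sgk1 were Ifrd1 (r = 0.96), Kdm6b (r = 0.94) and Epc1 (r = 0.93), and those most like Tat were the amino acid carriers Slc38a2 (r = 0.93), Slc25a15 (r = 0.93) and Slc25a29 (r = 0.92).

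Dusp1 and Tsc22d3 turned from a rise at 1 h to a fall at 6 h, and their group means were the most alike of any pair among the 8 (r = 0.91 over 18 group means). The stretches around their transcription start, from 250 bases before to 50 after it (RefSeq, build GRCr8), are shown because the genes move together. Windows were found for 6 of the 8 genes. Capitals mark the letters of the cAMP response element, TGACGTCA, and of its short form, TGACG, which reads CGTCA on the opposite strand.

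Dusp1 (chr10:17184603-17184902, plus strand): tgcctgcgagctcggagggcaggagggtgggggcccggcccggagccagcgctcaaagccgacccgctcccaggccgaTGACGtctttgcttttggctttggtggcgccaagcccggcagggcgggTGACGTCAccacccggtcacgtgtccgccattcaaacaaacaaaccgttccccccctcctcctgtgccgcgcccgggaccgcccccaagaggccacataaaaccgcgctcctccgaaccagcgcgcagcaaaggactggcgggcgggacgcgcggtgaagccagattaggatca

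Tsc22d3 (chrX:109066340-109066639, minus strand): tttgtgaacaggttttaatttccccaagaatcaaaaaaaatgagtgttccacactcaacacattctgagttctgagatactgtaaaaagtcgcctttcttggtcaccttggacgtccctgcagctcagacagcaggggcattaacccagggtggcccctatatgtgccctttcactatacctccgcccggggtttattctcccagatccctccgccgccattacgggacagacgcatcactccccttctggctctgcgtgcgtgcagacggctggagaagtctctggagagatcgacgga

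The Dusp1 window holds TGACGTCA at position -124 from the start and a further TGACG at -172. The short form also lies within TGACGTCA on both strands. Of 33469 rat promoters of 300 bases, 1.8% hold TGACGTCA and 21.2% hold the short form on either strand. Tsc22d3 and the other 4 windows held neither. The letters AGAACA, an arm of the glucocorticoid response element, or TGTTCT, which is the same arm on the opposite strand, were in 0 of the 6 windows. Of all promoters 20.7% hold an arm, and 0.015% hold the full palindromic element, both arms with 3 bases of any kind between them. These matches describe letters in a short window.

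Dusp1 rose in 10 of 10 animals at 1 h, by 0.40 to 2.26 (median 1.43). Its control levels ran from 8.84 to 10.71 and its 1 h remnant levels from 10.85 to 11.40, without overlap (n = 11 each). The fitted rise was 1.37 ± 0.17 (SE), 2.59-fold (limma adjusted p = 2.66e-06). At 6 h it fell in 9 of 9 animals and at 24 h in 8 of 8, by 1.36 ± 0.19 (2.56-fold, limma adjusted p = 8.31e-07) and 1.89 ± 0.19 (3.7-fold, limma adjusted p = 1.16e-08). The response at 6 h minus that at 1 h was -2.73 ± 0.25 (limma adjusted p = 3.21e-09). The genes most like it in pattern were Tbx2 (r = 0.96), Lpin1 (r = 0.95) and Errfi1 (r = 0.93). Lpin1 and Errfi1 are themselves known glucocorticoid targets.

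Tsc22d3 rose by 0.67 ± 0.18 (SE) at 1 h, 1.59-fold, in 8 of 10 animals (limma adjusted p = 0.0126). The changes ran from -0.38 to 1.24 (median 0.79), and the EtOH replicate 4 and the CHO replicate 1 were lower, at -0.19 and -0.38. These animals had control levels of 8.29 and 8.57, the highest of 1 h, with HF replicate 1 at 8.28. As for Sgk1, a high control level lowers the change taken from it. Without the CHO replicate 4 the rise was 0.60 and not called (limma adjusted p = 0.0518). At 6 h the levels fell from 7.22 to 8.11 in the controls to 5.58 to 6.77 in the remnants, without overlap, a change of -1.69 ± 0.19 or 3.23-fold (limma adjusted p = 3.2e-08). At 24 h the change was -1.35 ± 0.20 (limma adjusted p = 3.98e-06), in 7 of 8 animals. Polg2 (r = 0.96), Rhobtb1 (r = 0.95) and Sh3bp5 (r = 0.95) were most like it.

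Fkbp5 rose on average at 1 and 6 h, when its changes had the largest SD of the 5 targets (1.10 and 1.06). At 24 h they had the smallest (0.439). At 1 h the EtOH animals changed by 0.87, 1.23, 0.98 and -0.07, the HF animals by 2.56, 1.41 and -1.01, and the CHO animals by 0.96, 1.94 and -0.54. In each diet the animal that was lower was replicate 4. These 3 animals had control levels of 7.64 to 8.36, above the 6.16 to 7.53 of the 7 animals that were higher, while their remnant levels were 7.33 to 7.81, against 7.39 to 9.03 in the others. The change is the remnant minus the control, so animals sorted by its sign tend to differ in control level. At 6 h CHO replicates 3 and 4 changed by -0.865 and -0.41, from control levels of 8.26 and 7.73, and the other 7 animals were higher by 0.36 to 2.02. Those 7 started at 6.23 to 7.76, which overlaps the control levels of the lower ones. At 24 h the 2 lower animals started at 6.82 and 7.84, against 6.31 to 7.38 in the 6 that were higher.

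The fitted change of Fkbp5 was 0.84 ± 0.27 (SE) at 1 h (1.79-fold, limma adjusted p = 0.0408), 0.83 ± 0.29 at 6 h (1.78-fold, limma adjusted p = 0.022) and 0.59 ± 0.30 at 24 h (limma adjusted p = 0.14, not called). The 3 replicate 4 animals of 1 h share a scan day with 1 other. Within that scan day the change was -0.29 (limma adjusted p = 0.617), and within the other scan day, of 6 animals, it was 1.65 (limma adjusted p = 0.000134). HF and CHO replicates 3 of 1 h, left out for a marked array, were scanned with the replicate 4 animals. In them Fkbp5 was higher by 1.144 and 1.379. Within the 2 scan days of 6 h with 3 and 5 animals the change was 1.91 and 0.41, called in both. The first of these held animals of 2 diets only, EtOH and CHO, so its value is not a mean of the 3 diets. Scan days of 3 or 4 animals leave very little to estimate the spread from. The 1 h call ended without any 1 of 7 animals: EtOH replicate 1, 2 or 3, HF replicate 1 or 2, or CHO replicate 1 or 2 (0.58 to 0.83, limma adjusted p from 0.0701 to 0.2). It also ended with a trended and robust prior (limma adjusted p = 0.101). The 6 h call ended without CHO replicate 2 (0.54), HF replicate 3 (0.91) or HF replicate 4 (0.76), with limma adjusted p from 0.0504 to 0.135, and with a trended and robust prior (limma adjusted p = 0.0589). With all 72 arrays the 24 h change was 0.74 and was called (limma adjusted p = 0.0123). Azin1 (r = 0.93), Lrrc8a (r = 0.89) and Trappc10 (r = 0.88) had the most similar group means.

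**Figure D4:**
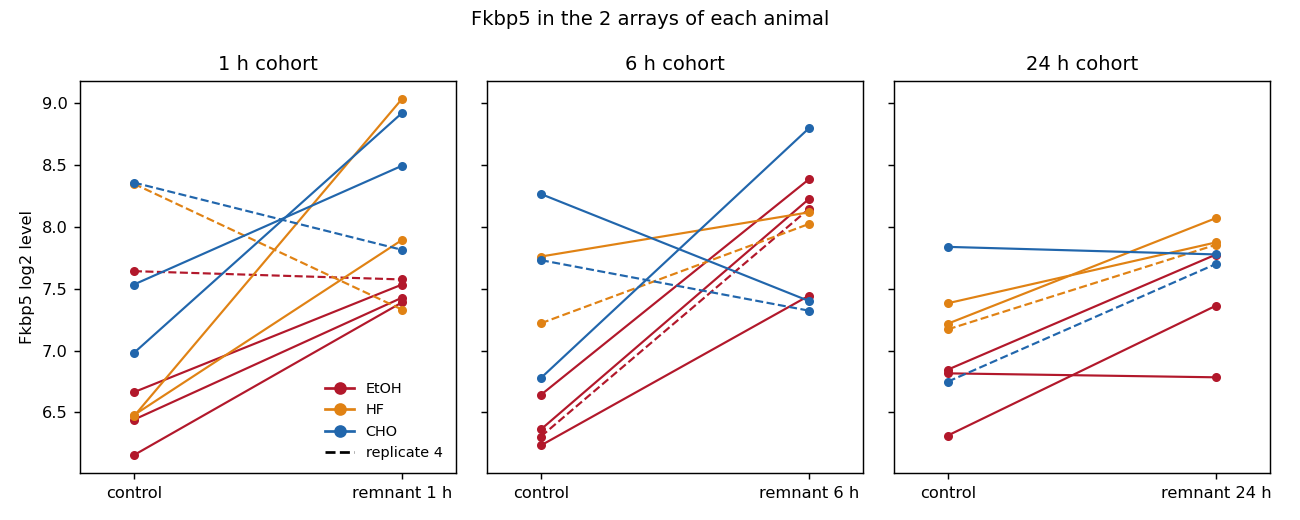
Fkbp5 log2 level in the control liver and the remnant of each animal, joined by a line (dashed for replicate 4), at 1, 6 and 24 h. The lines that descend at 1 h start between 7.64 and 8.36, and those that ascend start between 6.16 and 7.53. Sorting lines by direction tends to part their starting levels, and at 6 and 24 h these overlap.

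Within the scan day that holds the replicate 4 animals of 1 h, the other targets kept their sign. Dusp1 changed by 1.52 (limma adjusted p = 0.00322), Sgk1 by 1.23 (limma adjusted p = 0.0853), Tat by 0.60 (limma adjusted p = 0.0515) and Tsc22d3 by 0.37 (limma adjusted p = 0.409). In the other scan day the same genes changed by 1.33, 1.43, 1.22 and 0.84, all called. Within the larger scan days of 6 h, Serpina6 changed by -1.24 and -0.93, Nr3c1 by -0.77 and -0.70, Tsc22d3 by -1.52 and -1.67, Dusp1 by -2.07 and -1.11, Tat by 1.19 and 0.80, and Sgk1 by 0.42 and 0.85, all called. The first value of each pair comes from 3 animals of EtOH and CHO, without HF. Within the largest scan day of 24 h, Serpina6 changed by -2.89, Nr3c1 by -1.01, Tsc22d3 by -1.70, Sgk1 by -1.01 and Dusp1 by -1.95, all called.

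Diet by diet, 1, 3 and 2 of the 8 genes were called at 1 h in EtOH, HF and CHO (2.94%, 2.12% and 1.85% of all genes). At 6 h the counts were 5, 4 and 4 (34.3%, 19.3% and 29.2%), and at 24 h 3, 5 and 4 (14.2%, 24.9% and 16.7%). Dusp1 rose at 1 h in each diet. These calls rest on few animals, and ended without EtOH replicate 2 (1.08, limma adjusted p = 0.0834), CHO replicate 2 (1.46, limma adjusted p = 0.082), HF replicate 2 (1.33, limma adjusted p = 0.154) or HF replicate 4 (0.73, limma adjusted p = 0.457). Fkbp5, Tat and Sgk1 rose at 6 h in EtOH, by 1.66, 1.07 and 0.96, while their HF and CHO changes at 6 h were 0.25 to 0.705 and not called. The CHO change of Tat was called without CHO replicate 4 (1.15, limma adjusted p = 0.0194), with array weights (0.84, limma adjusted p = 0.0288) and with all 72 arrays (0.83, limma adjusted p = 0.0247). With all 72 arrays the HF changes of Tat (0.90, limma adjusted p = 0.0153) and Fkbp5 (1.12, limma adjusted p = 0.0366) were called as well. Without EtOH replicate 2 the Sgk1 change was 0.91 and not called (limma adjusted p = 0.0619). Nr3c1 fell at 6 h in HF and CHO, by 0.99 and 1.09, and its EtOH change of -0.27 was not called. Without HF replicate 3 the HF change, then of 1 animal with the spread taken from the other groups, was -0.95 and not called (limma adjusted p = 0.0517). A call in 1 diet and none in another does not show a difference, which the next test addresses.

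The difference in response between diets was tested in 9 comparisons for the 8 genes, and 0 of these 72 tests were called in limma, while 9 had an unadjusted p under 0.05. The share of all genes called was 0% at 1 h, 1.88% and 2.05% at 6 h and 2.94% and 5% at 24 h for EtOH minus CHO and EtOH minus HF, and 0% for HF minus CHO at each time. Beside Nr3c1 at 6 h, the values nearest to a call were those of Tsc22d3 and Dusp1 at 24 h. Tsc22d3 changed at 24 h by -0.78, -0.83 and 0.40 in the EtOH animals, -1.44, -2.70 and -1.35 in the HF animals, and -2.23 and -1.42 in the CHO animals, with no overlap between EtOH and the others. The HF and CHO replicates 3, left out for a marked control array, changed by -0.305 and -0.569, within the EtOH range. The EtOH minus HF difference was 1.43 ± 0.45 (SE, 95% interval 0.50 to 2.36, limma adjusted p = 0.0684) and EtOH minus CHO was 1.42 ± 0.50 (limma adjusted p = 0.146). After renewed quantile normalization the first was 1.54 and was called (limma adjusted p = 0.0465).

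For Dusp1 the changes of the EtOH animals were smaller at both later times, again without a call of the difference. At 6 h it changed by -0.65, -1.04, -0.39 and -0.35 in EtOH, -1.87 and -1.39 in HF, and -3.29, -1.33 and -0.89 in CHO. At 24 h it changed by -1.07, -1.37 and -0.57 in EtOH, -2.46, -1.60 and -2.31 in HF, and -2.59 and -2.48 in CHO. EtOH and HF did not overlap at either time, and EtOH and CHO overlapped at 6 h only. HF and CHO did not overlap at 24 h either. Of the animals left out for a marked array, HF replicate 1 at 6 h (-0.692) and CHO replicate 3 at 24 h (-1.202) lay within the EtOH range, and EtOH replicate 4 at 24 h changed by -1.897. EtOH minus CHO was 1.23 ± 0.41 (SE) at 6 h (limma adjusted p = 0.149) and 1.53 ± 0.49 at 24 h (limma adjusted p = 0.0985). Without the CHO replicate 4 of 6 h the first was 1.70 and called (limma adjusted p = 0.0438), and without the CHO replicate 2 of 6 h the second was 1.53 and called (limma adjusted p = 0.0252). EtOH minus HF was 1.02 ± 0.47 and 1.12 ± 0.44 (limma adjusted p = 0.359 and 0.169).

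Among the remnants themselves, 4 values were called over 9 comparisons of diets. Dusp1 was higher in EtOH than in HF at 6 h by 1.25 ± 0.29 (SE, 2.37-fold, limma adjusted p = 0.0133), with EtOH levels of 9.51, 9.03, 9.13 and 9.35 above HF levels of 8.10, 7.53 and 8.55, and 2.99% of all genes were called. Without HF replicate 3 it was 0.93 and not called (limma adjusted p = 0.13). Fkbp5 was lower in EtOH than in CHO at 1 h, with a difference of -1.22 ± 0.32 (limma adjusted p = 0.042), with EtOH levels of 7.53, 7.39, 7.43 and 7.57 below CHO levels of 8.49, 8.92 and 7.81, and 2.2% of all genes were called. That call ended without any 1 of 9 animals: EtOH replicate 1, 2 or 3, CHO replicate 1 or 2 or HF replicate 3 or 4 of 1 h, EtOH replicate 1 of 6 h, or EtOH replicate 2 of 24 h (-1.08 to -1.22, limma adjusted p from 0.0509 to 0.256). With no scan day term it was -0.93 (limma adjusted p = 0.173), and with the scan day as a random block -0.48 (limma adjusted p = 0.582).

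At 24 h Nr3c1 was lower in EtOH than in CHO remnants, with a difference of -0.69 ± 0.18 (SE, limma adjusted p = 0.0189), with levels of 7.24, 7.80 and 7.85 against 8.36, 8.48, 8.22 and 8.19, and 6.22% of all genes were called. Without EtOH replicate 1 it was -0.48, without CHO replicate 1 it was -0.68 and without CHO replicate 2 it was -0.63, none of them called (limma adjusted p = 0.209, 0.0574 and 0.0909). Tsc22d3 was higher there by 0.80 ± 0.24 (limma adjusted p = 0.0451), with EtOH levels of 6.72, 6.79 and 7.80 and CHO levels of 5.80, 6.55, 6.86 and 6.00, which overlap. That call ended without any 1 of 16 animals, 6 of them from the EtOH and CHO rats of 24 h (0.63 to 0.88, limma adjusted p from 0.0507 to 0.162). For HF minus CHO remnants 0 of 8 genes were called at each time (0.0483%, 0.0345% and 0.00689% of all genes), with 1, 0 and 1 at an unadjusted p under 0.05 in limma. For EtOH minus CHO at 6 h, EtOH minus HF at 1 h and EtOH minus HF at 24 h 0 were called (1.17%, 2.16% and 3.18% of all genes), with 1, 1 and 2 at an unadjusted p under 0.05.

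Responses also differed between times, as compared between different animals. From 1 to 6 h the response of 5 of the 8 genes became lower and 0 higher (14.9% and 17.7% of all genes). From 6 to 24 h 3 became lower and 0 higher (14.4% and 14.6%), and from 1 to 24 h 6 became lower and 0 higher (12.7% and 15.4%). Sgk1 stepped down at both intervals, with differences of -0.87 ± 0.29 (SE, limma adjusted p = 0.0211) and -1.38 ± 0.31 (limma adjusted p = 0.00096). The first of these ended without CHO replicate 1 of 1 h (-0.73), HF replicate 2 of 1 h (-0.75) or HF replicate 4 of 6 h (-0.81), with limma adjusted p from 0.0554 to 0.0685. It also ended with the animal as a random block (limma adjusted p = 0.0615), with no replicate block (limma adjusted p = 0.0716) and with a trended and robust prior (limma adjusted p = 0.054). The 24 minus 6 h step of Dusp1 was not called (-0.53, limma adjusted p = 0.157), and without CHO replicate 2 of 6 h it was -0.77 and called (limma adjusted p = 0.00808). Hsd11b1 and Fkbp5 had no called difference between times.

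**Figure D5:**
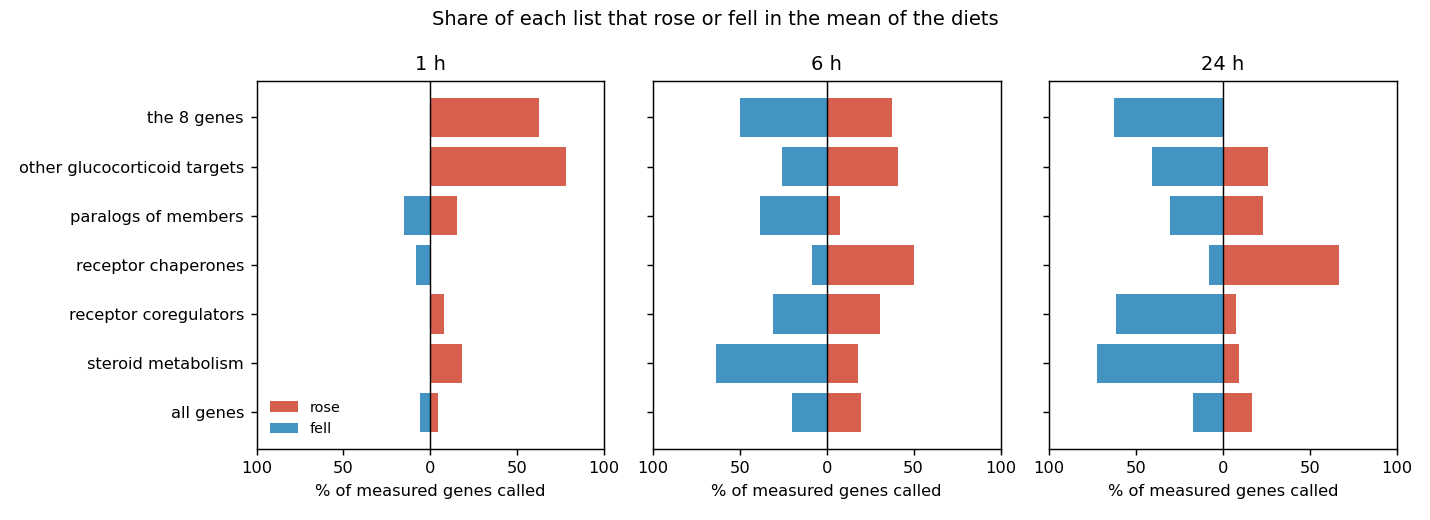
Share of the measured genes of each list that rose (right) or fell (left) at 1, 6 and 24 h in the mean of the diets, with all 14506 genes in the bottom row. At 1 h, 21 of 27 other glucocorticoid targets rose, against 4.47% of all genes. The lists were drawn up with earlier results of these data known.

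Other known targets of the receptor moved with the 5 target genes at 1 h. Of 27 measured, 21 rose and 0 fell, with a median log2 change of 0.65. This list and those below were drawn up with earlier results of these data known, so their shares are a description. Igfbp1, which binds insulin-like growth factors, rose by 3.26 ± 0.32 (SE), Rhob, a small GTPase, by 2.56 ± 0.17, Pdk4, which restrains glucose oxidation, by 1.57 ± 0.17, and Nfkbia, the inhibitor of NF-kappaB, by 1.19 ± 0.14. At 6 h 11 rose and 7 fell (median 0.076), with Pdk4 at 2.20 ± 0.19, the cell cycle inhibitor Cdkn1a at 2.03 ± 0.18, the amino acid enzyme Got1 at 2.03 ± 0.15 and angiotensinogen (Agt) at 1.18 ± 0.09. At 24 h 7 rose and 11 fell (median -0.22). Cdkn1a was still 1.84 ± 0.19 higher, while the glucose-releasing enzyme gene G6pc1 fell by 1.52 ± 0.22, Lpin1 by 2.05 ± 0.29 and Errfi1 by 0.73 ± 0.10. Many of these genes also answer to insulin, glucagon, cytokines or growth factors. Macrophage markers moved at 1 h as well, with 6 of 10 higher and 0 lower (median 0.28), against 4.47% of all genes higher. Their part was not tested.

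Of 12 genes of the receptor's chaperones 0 rose and 1 fell at 1 h, 6 rose and 1 fell at 6 h, and 8 rose and 1 fell at 24 h (medians -0.065, 0.28 and 0.28). Of all genes 4.47%, 20% and 16.6% rose and 5.83%, 19.9% and 17.4% fell at these times, so that more genes were called at 6 and 24 h than at 1 h on the whole array, and the lists below share that background. Hsp90aa1, the inducible form of the chaperone that holds the receptor ready for hormone, rose by 0.92 ± 0.12 (SE) at 6 h and 0.85 ± 0.12 at 24 h. Ptges3, which stabilises that complex, rose by 0.57 ± 0.07 at 6 h, and Stip1, which passes the receptor to it, by 0.69 ± 0.11 at 24 h. Fkbp4 fell by 0.23 ± 0.07 at 1 h and by 0.48 ± 0.08 at 6 h and rose by 0.44 ± 0.08 at 24 h. Of 13 coregulators, 1 rose and 0 fell at 1 h, 4 rose and 4 fell at 6 h, and 1 rose and 8 fell at 24 h (medians 0.009, 0.054 and -0.42). The gene that rose at 1 h was Ppargc1a, a coactivator of gluconeogenesis, by 2.17 ± 0.11. The steroid receptor coactivator Ncoa2 fell by 1.13 ± 0.07 at 6 h and 0.69 ± 0.07 at 24 h, and Nr0b2, a corepressor of nuclear receptors, by 2.69 ± 0.26 at 6 h.

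Of 11 genes of steroid metabolism, 2 rose and 0 fell at 1 h. At 6 h 2 rose and 7 fell, and at 24 h 1 rose and 8 fell (medians 0.045, -0.46 and -0.28 at 1, 6 and 24 h), against 19.9% and 17.4% of all genes that fell at 6 and 24 h. Akr1d1, which reduces the ring of steroid hormones and bile acid precursors, fell by 1.29 ± 0.07 (SE) at 6 h. The steroid hydroxylase gene Cyp3a2 fell by 0.52 ± 0.07 at 6 h and 1.05 ± 0.07 at 24 h, whereas its relative Cyp3a9 rose by 1.10 ± 0.09 and 1.54 ± 0.10. Abcb1a, a drug and steroid exporter, fell by 1.12 ± 0.15 at 6 h. The Cyp3a genes are alike in sequence, and cross-hybridisation of their probes was not tested.

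Of 13 paralogs of the 8 genes, 2 rose and 2 fell at 1 h, 1 rose and 5 fell at 6 h, and 3 rose and 4 fell at 24 h (medians 0.017, -0.13 and -0.18), and no test compared them with the 8 genes. Tsc22d2 rose by 0.92 ± 0.07 (SE) at 1 h beside Tsc22d3, while Sgk2 fell by 0.64 ± 0.13 as Sgk1 rose. Nr3c2, the mineralocorticoid receptor that also binds corticosterone, fell by 1.24 ± 0.11 at 6 h and 0.84 ± 0.11 at 24 h. Dusp6, a phosphatase specific for ERK, rose by 1.48 ± 0.17 at 6 h and 1.02 ± 0.17 at 24 h, when Dusp1 fell.

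In the control livers the other targets of the receptor differed between EtOH and the other diets in both directions. Of 27, 5 were higher and 7 lower than in CHO (median -0.19), and 6 higher and 7 lower than in HF (median -0.033). Of all 14506 genes, 975 were higher and 699 lower than in CHO, and 1069 higher and 835 lower than in HF. The other lists named here share that background. Pdk4 was higher by 2.29 ± 0.28 (SE) than in CHO and by 2.48 ± 0.27 than in HF, and Cdkn1a by 1.85 ± 0.16 than in CHO. Per1, a clock gene that glucocorticoids induce, was lower than in CHO (-1.10 ± 0.18), as was Klf9, a transcription factor induced by the receptor (-0.65 ± 0.11). Cyp3a9 was higher by 1.37 ± 0.24 than in CHO and 1.30 ± 0.23 than in HF. Por, which passes electrons to the P450 enzymes, was lower, at -0.70 ± 0.19 against CHO and -0.88 ± 0.18 against HF. Of the coregulators 1 was higher and 4 lower than in CHO, with the coactivators Ncoa2 at -0.29 ± 0.08 and Ep300 at -0.28 ± 0.08. Of the chaperones 2 were higher than in CHO and 3 higher than in HF, with 0 lower in either, Hsp90ab1 by 0.26 ± 0.07 and 0.29 ± 0.07.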

How the data were processed

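The authors' deposited values are log2 signals of Affymetrix Rat Gene 1.0 ST probe sets. Per the submitters' processing notes, RMA and Affymetrix Expression Console were used, with versions not given in the sources used here. Of the authors' deposited tables, the batch-corrected one was the main source. It differs from the value table by 1 constant per probe set and scan day, so within-animal changes are the same in both. Of 29214 probe sets, 15310 had 1 gene symbol, 323 several and 13581 none in the annotation used, which gave 14506 genes, each by its probe set of highest mean.

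Tests used limma 3.58.1 in R 4.3.3 on the log2 values, with Benjamini-Hochberg adjustment over all genes in each comparison and a threshold of 0.05. Responses were fitted with the animal as a block (54 arrays of 27 animals), and control livers (31 arrays) and remnants (32 arrays) with the scan day as a block. The number of arrays limits the precision. The labels tie the control and PHx arrays to 1 animal. The deviations of the 27 pairs correlated by -0.70 to 0.45 (median 0.20). On simulated data for 14506 genes, the 1 h response test recovered 90% of changes of 0.5 and 100% of changes of 1 (log2), and the EtOH minus CHO control test 29% and 100%.

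The genes, lists and tests were chosen with earlier results of these data known. In each of 5 lists up to 4 called genes of smallest p were named per comparison, and for each of the 8 genes the 3 with the highest correlation over group means. Promoters came from RefSeq (GRCr8). The alternatives were other tables, arrays, blocks, weights and filters, single scan days or cohorts, and leaving out each animal. 1 of them, leaving out the CHO control arrays in doubt, was added after seeing the data. A 12 h time was not analysed here.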

Additional observations from a re-analysis of the deposited data

Results flagged for a closer look

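Sgk1 in 1 control liver and 1 remnant stood far from the rest of its group. The EtOH replicate 2 control of the 1 h cohort had a level of 9.523, and its gap to the nearest other was 0.915 of the group's range. The CHO replicate 1 remnant of 24 h had a level of 7.64, with a gap of 0.942 of a narrow range from 7.44. In 96 groups tested 2 were found, and chance gives about 1 in 20.

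The other results are responses that differed between times by limma's test of the difference, in different animals. Each scan day holds animals of 1 time, and both arrays of an animal were scanned on the same day. Within single scan days Dusp1 changed by 1.33 and 1.52 at 1 h, by -2.07 and -1.11 at 6 h and by -1.95 at 24 h, and Serpina6 by -0.24 and -0.08, by -1.24 and -0.93 and by -2.89. The first value at 6 h comes from EtOH and CHO animals only. From 1 to 6 h the response became lower for Serpina6 (-0.89), Nr3c1 (-0.76), Tsc22d3 (-2.36), Sgk1 (-0.87, a call that ended without 1 of 3 animals or with another block or prior) and Dusp1 (-2.73). From 6 to 24 h it became lower for Serpina6 (-1.91), Tat (-1.13) and Sgk1 (-1.38). From 1 to 24 h it became lower for Serpina6 (-2.8), Nr3c1 (-0.95), Tsc22d3 (-2.02), Tat (-1.42), Sgk1 (-2.25) and Dusp1 (-3.26).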

How the results depend on the processing

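Of 952 values of the mean responses under alternatives, 922 kept their side of the threshold, 26 lost a call and 3 gained one. 1 reversed, Fkbp5 at 1 h within scan day 8 (-0.292, where 1 of the 8 genes was called). Direction was compared only where the main or the alternative value was called, and uncalled values could change sign. Nr3c1 at 1 h was -0.168 and 0.268 within scan days 7 and 8. Many of the 952 values were bound to stay the same. Each gene had 1 probe set, so a mean of probe sets changes nothing. The table before batch correction holds the same within-animal changes. Leaving out an animal of another time alters only the spread. The cause of each change in a call was not tested. For EtOH minus CHO control livers the count of 1 called gene became 2 with array weights, the authors' table without outliers, dim genes left out, no scan day block, the scan day as a random block or without the CHO arrays in doubt, and 0 within the 1 h and 24 h cohorts. For EtOH minus HF it became 2 with the authors' table, dim genes left out or without those arrays, and 0 within the 24 h cohort. For control livers the authors' table was also fitted without the CHO arrays in doubt, so these settings share that removal. Animals of the same cohort and replicate number have consecutive animal numbers across the diets, and the labels do not say whether they were handled together. The deviations of their control arrays correlated by -0.228 to 0.342 (27 pairs), which cannot exclude it. With a replicate block the control liver counts were 2 for EtOH minus CHO and 3 for EtOH minus HF. Those of EtOH minus CHO remnants were 0 at 1 h and 1 at 24 h.

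Differences in response gained 1 call at 6 h for EtOH minus CHO (array weights, dim genes left out, trended robust prior, renewed quantiles) and EtOH minus HF (all 72 arrays), and at 24 h for EtOH minus HF (renewed quantiles). Remnants of EtOH minus CHO had 0 at 1 h with all 72 arrays, median centring, the trended robust prior or no or a random scan day block, and at 24 h 0 with all 72 arrays and 1 with centring or no or a random block, and 3 with array weights. EtOH minus HF remnants had 1 at 1 h (array weights, no or random block), 2 at 6 h (array weights, dim genes left out, trended robust prior, renewed quantiles) and 1 at 24 h (renewed quantiles). EtOH alone at 1 h had 2 with array weights, and HF alone 0 with the trended robust prior and 1 with no replicate block (the animal left out), which also ended the Sgk1 call at 6 h (adjusted p = 0.107 in limma).

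Leaving out single animals gave 4 to 5, 5 to 7 and 4 to 6 called genes in the mean responses at 1, 6 and 24 h. In single diets the counts ran from 0 to 3 (HF) and 1 to 2 (CHO) at 1 h, 0 to 4 at 6 h (HF, with 0 without its replicate 3, which leaves 1 HF animal) and 2 to 4 at 24 h (CHO, with 2 without its replicate 2). They ran from 1 to 2 in control livers for EtOH minus CHO and EtOH minus HF, and from 0 to 1 in the differences in response of EtOH minus CHO at 6 and 24 h. In remnants they ran from 0 to 1 at 1 h and 0 to 2 at 24 h for EtOH minus CHO, and from 0 to 1, 0 to 2 and 0 to 1 at 1, 6 and 24 h for EtOH minus HF.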

Other observations

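The 9 animals with 1 array marked as an outlier entered no test of the responses. Their own changes from control to remnant, given as values only, had medians at 1, 6 and 24 h (2, 3 and 4 animals) of -0.197, -0.967 and -2.61 for Serpina6 and of 0.012, -0.767 and -0.63 for Nr3c1. Tsc22d3 had 0.951, -1.407 and -0.645, and Dusp1 had 0.582, -1.325 and -2.006. 1 of these animals, EtOH replicate 4 of 24 h, has a remnant array whose diet tag names the high fat diet. Fkbp5 was higher in each of these 9 remnants, by 0.374 to 2.453, with medians of 1.261, 1.327 and 1.048. Tat had medians of 0.948, 1.197 and 0.085, Sgk1 of 1.971, 0.479 and -0.74, and Hsd11b1 of -0.062, -0.054 and -0.118.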
